A study of Mus musculus with 8 samples.

Results

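The comparison is the deletion of the enhancer IkE120 against wt in 4C-seq from the *Ikzf1* promoter, in P5424 cells with and without stimulation. It takes 4 of the 8 samples of the series: wt and ΔIkE120 cells, each without stimulation and after 6 h of PMA (20 µg/ml) together with ionomycin (0.5 µg/ml). They were chosen by assay, cell line, genotype and state from their labels. P5424 is a mouse line of immature T cells. The ΔIkE120 cells were derived by Cas9 editing with a pair of guides followed by limiting dilution, so they are taken to be 1 clone, and which clone entered 4C is not given in the sources used here. The headers name the unstimulated libraries DMSO, while the labels call them unstimulated. Each genotype and state has 1 library, so no library has a replicate of its own. The deletion and any other difference between the edited clone and wt cells cannot be told apart, also where a difference recurs in both states.

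*Ikzf1* encodes Ikaros, a zinc finger transcription factor required for the development of lymphocytes. Enhancers are stretches of DNA bound by transcription factors that raise transcription from promoters at a distance, and an open enhancer shows as a DNase hypersensitive site (DHS). Circularized chromosome conformation capture (4C) asks which parts of a chromosome lie close to 1 chosen bait in crosslinked nuclei: chromatin is cut with DpnII, ligated, cut again with Csp6I, circularized and amplified outward from the bait. PMA and ionomycin together mimic signalling from the T cell receptor.

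The bait lay at 11583520 on chromosome 11 of mm9, in an intron of the non-coding gene Gm11999, which overlaps the start of *Ikzf1*. Reads within 15 kb of the bait were left out, and the rest were summed in tiles of 20 kb, 49 on each side, which end 995 kb from the bait. In the tiles, wt cells had 1067916 reads unstimulated and 791289 stimulated, and ΔIkE120 cells 2145968 and 1275579. Both ΔIkE120 libraries were thus deeper than both wt libraries. Of the 4916 DpnII fragments in the tiles, 1443 and 1219 had reads in wt unstimulated and stimulated cells, and 1638 and 1665 in ΔIkE120 unstimulated and stimulated cells. Values are shares of the reads in the tiles unless another base is named. Exact (Clopper-Pearson) 95% intervals of these shares reach at most 0.108 percentage points to either side within the regions described, and they describe counting error alone, because amplified copies of a ligation cannot be told from separate ligations without molecular identifiers. Differences between libraries were therefore read against the spread between states. A ratio is the log2 ratio of the share in ΔIkE120 to the share in wt, with 10 reads added and scaled to library size, and its mean ± SD is over the 2 states.

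The deletion was visible as missing DpnII sites. Cuts 3 bp from the PAM of each guide would remove 285 bp, chr11:11464309-11464593 on the plus strand of mm9, in an intron of the non-coding gene Gm11998 and inside the DHS of IkE120 at chr11:11464295-11464600. This length is a prediction from the guides. The paper, which sequenced the junctions, states a slightly longer deletion. The guides are shown with the PAM in capitals, on the plus and the minus strand in this order, because their cuts set which sites are lost.
Upstream guide, chr11:11464292-11464314: caagaagagagatcaacgcaTGG
Downstream guide, chr11:11464588-11464610: ctggaaaagcctataacagtAGG
The stretch between the cuts is shown with its 2 DpnII sites in capitals, since reads at those sites tell the genotypes apart.
Deleted stretch, chr11:11464309-11464593: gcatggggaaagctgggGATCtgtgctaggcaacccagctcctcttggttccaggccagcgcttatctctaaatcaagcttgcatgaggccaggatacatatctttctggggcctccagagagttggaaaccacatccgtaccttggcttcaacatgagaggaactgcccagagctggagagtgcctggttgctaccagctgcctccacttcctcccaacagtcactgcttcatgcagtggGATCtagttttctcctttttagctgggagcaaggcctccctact

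Counts followed the DpnII site at the left end of the listed fragment, an inference from these data. Within 300 kb of the bait, the mean reads per site in wt unstimulated cells were 151.6 where neither adjoining fragment held a Csp6I site, 831 where the left fragment alone held one, 645.3 where the right fragment alone did and 1274 where both did. In the other 3 libraries too the mean was lowest where neither side held a Csp6I site, at 113.8 in stimulated wt cells and at 390.2 and 257.8 in ΔIkE120 cells without and with stimulation. A fragment without a Csp6I site was thus not empty when its left neighbour had one, and the reads are described by site below. Where results were computed on fragments with a Csp6I site alone, a second restriction, to DpnII sites with a Csp6I site on either side, was added after this was seen.

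The site at 11464550 had 4132 reads in wt unstimulated and 3720 in wt stimulated cells, and 0 in both ΔIkE120 libraries. The site at 11464326 had 1922 and 366 reads in the same wt libraries and 0 in both ΔIkE120 libraries. A count of 0 allows a share of up to 0.00014% in ΔIkE120 cells without stimulation and 0.000235% with it. Both sites lie between the cuts, and the genotypes did not overlap at either. The site at 11464302, which lies within the upstream guide and outside the deletion, kept reads: 0.805% and 0.838% in wt unstimulated and stimulated cells, and 0.342% and 0.410% in ΔIkE120 cells. Its ratio was -1.13 ± 0.14 (SD, n = 2 states), lower in both states. This site is 7 bases from the first predicted cut, so ΔIkE120 reads running right from it would cross the junction. Whether such reads could map to mm9 was not tested. At 11465211, the first site to the right of the deletion, the shares were 0.519% and 0.515% in wt and 0.805% and 0.482% in ΔIkE120 cells, so the states differed in sign. The deletion joins the fragments between these 2 sites into a predicted fragment of 628 bp with 3 Csp6I sites.

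**Figure D1:**
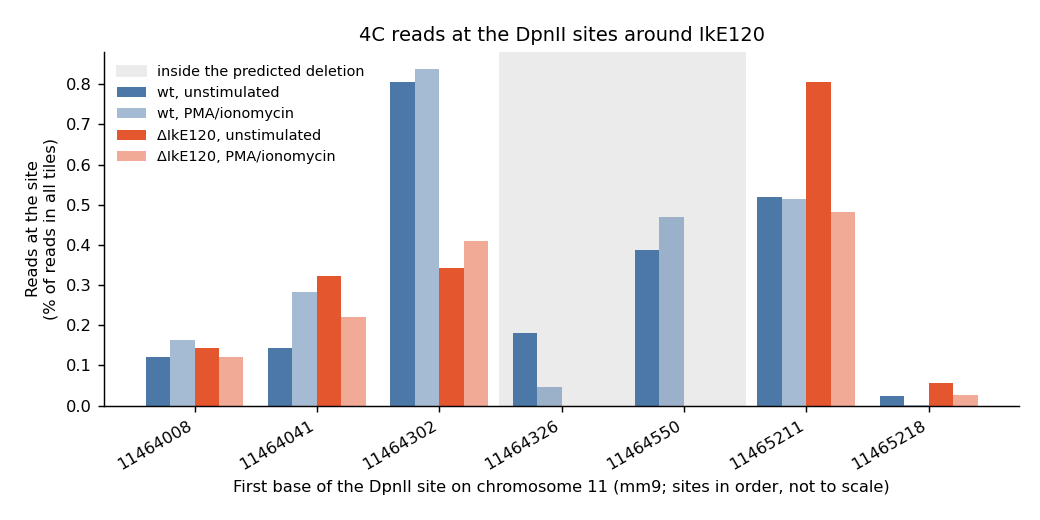
Reads at 7 DpnII sites around IkE120, as a percentage of the reads in all tiles, in the 4 libraries; sites stand in order and not to scale, and the shaded pair lies inside the predicted deletion. Bars are single libraries without error bars, and both ΔIkE120 libraries are at 0 in the shaded pair.

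Around the deleted enhancer, contact with the *Ikzf1* promoter was still measured. The window of 10 kb to either side of the IkE120 centre took 14.4% of reads in wt and 14.1% in ΔIkE120 cells without stimulation, and 13.5% in wt and 10.9% in ΔIkE120 cells after it. The unstimulated libraries nearly coincided, and ΔIkE120 was lower in stimulated cells. These are ratios of -0.03 and -0.30, a mean of -0.16 ± 0.20 (SD, n = 2 states), which is smaller than the spread between states. The wt reads include those of the deleted sites. Without the fragments that the deletion removes or cuts, the ratios were 0.07 and -0.22, a mean of -0.08 ± 0.20. This also left out the site at 11464302, which kept reads in ΔIkE120 cells and was lower there in both states. The shift is thus not that of the deleted sites alone. The same window took 10.95% of reads in DN3 thymocytes and 3.72% in ES cells, which gives a scale for differences between cell types.

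The interval of 8 DHSs upstream of *Ikzf1*, chr11:11406270-11469761, which includes IkE180, IkE155 and IkE120, took 25.8% and 26.1% in wt unstimulated and stimulated cells, and 23.9% and 24.3% in ΔIkE120 cells. Both ΔIkE120 libraries lay below both wt libraries. Among the 26 regions with reads in the tiles, the genotypes also separated, in either direction, in a few others. These were *Ddc*, *Cobl*, the bands from 100 to 250 kb downstream and 250 to 500 kb upstream, and both bands beyond 500 kb. In the rest they overlapped. With 1 library per genotype and state, such a separation was not tested. The ratio of the DHS interval was -0.11 ± 0.01, small in size but alike in both states. Without the fragments that the deletion removes or cuts, the site at 11464302 again among them, it was -0.07 ± 0.01. It also depended on the scaling: with all chromosome 11 reads over 15 kb from the bait as the base it was 0.01 ± 0.09, and with quantile normalization 0.08 ± 0.03. The stretch from there to 15 kb before the bait took 23.2% and 19.2% in wt and 24.6% and 21.4% in ΔIkE120 cells, a ratio of 0.12 ± 0.05. This was 0.02 ± 0.08 with TMM factors, and -0.25 ± 0.14 for its share of all covered fragments, although the covered fragments themselves were 192 and 176 in wt and 196 and 189 in ΔIkE120 cells.

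As shares of the tile reads, the other enhancer windows gave no ratio of the same sign in both states. IkE180 took 3.71% and 6.66% in wt and 5.24% and 6.32% in ΔIkE120 cells, and its ratio was 0.50 unstimulated and -0.08 stimulated. IkE155 took 5.77% and 6.42% in wt and 5.74% and 7.33% in ΔIkE120 cells, with ratios of -0.01 and 0.19. IkE25, between IkE120 and the bait, took 8.75% and 5.61% in wt and 7.32% and 7.25% in ΔIkE120 cells, with ratios of -0.26 and 0.37. In wt the IkE25 share was lower with stimulation, while in ΔIkE120 cells it was nearly the same in both states. IkE+15, inside *Ikzf1*, took 5.26% and 6.90% in wt and 5.70% and 6.53% in ΔIkE120 cells, with ratios of 0.11 and -0.08. With tile reads as the base, the windows of IkE180, IkE155, IkE25 and IkE+15 thus had ratios of opposite sign in the 2 states. With chromosome-wide scaling, IkE180, IkE155 and IkE+15 were instead higher in ΔIkE120 in both states. Their mean ratios were then 0.33 ± 0.33, 0.21 ± 0.22 and 0.14 ± 0.06. Quantile normalization gave 0.24 ± 0.31, 0.32 ± 0.25 and 0.24 ± 0.13, also above 0 in both states. IkE25 had opposite signs under both scalings.

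The protein-coding genes of the tiled range were described in the same way, and 9 of 10 had reads (Gm17624 holds 1 fragment, with 0 reads in all 4 libraries). The *Ikzf1* gene itself, beyond 15 kb from the bait, took 16.4% and 19.6% in wt and 20.2% and 18.6% in ΔIkE120 cells, with ratios of 0.30 and -0.07. *Fignl1*, which encodes an AAA ATPase, took 1.63% and 3.57% in wt and 2.01% and 2.68% in ΔIkE120 cells, with ratios of 0.30 and -0.42. *Grb10*, an imprinted adaptor of receptor tyrosine kinases, had ratios of -0.22 and 0.12, and 4930512M02Rik of 0.44 and -0.18. *Ddc*, which encodes aromatic amino acid decarboxylase, was lower in ΔIkE120 in both states: it took 5.07% and 4.98% in wt and 3.92% and 4.24% in ΔIkE120 cells, a ratio of -0.30 ± 0.10. With chromosome-wide scaling this was -0.18, and the covered fragments of *Ddc* were more in ΔIkE120 (136 and 130 of 170) than in wt (116 and 99). *Vwc2*, upstream, took 2.11% and 2.50% in wt and 1.52% and 2.24% in ΔIkE120 cells, a ratio of -0.32 ± 0.22, and on fragments with a Csp6I site this was 0.05 ± 0.46, and -0.20 ± 0.08 with a Csp6I site on either side. *Zpbp*, a sperm acrosome gene, gave -0.42 and 0.21, and 4930415F15Rik 0.29 and 0.03. Over the 26 enhancer windows, intervals, genes and bands of distance with reads, 14 had ratios of opposite sign in the 2 states. This is by shares of the tile reads, and which regions these were depended on the scaling. With chromosome-wide scaling, IkE180, IkE155, IkE+15 and *Ikzf1* were above 0 in both states. So were the bands from 15 to 50, 50 to 100 and 250 to 500 kb downstream. Conversely, the IkE120 window, the DHS interval, *Vwc2* and the upstream bands from 250 to 500 kb and beyond then had opposite signs.

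In tiles of 20 kb, the 4 profiles differed less near the bait than at a distance. Of 98 tiles, 91 had at least 10 covered fragments summed over the 4 libraries and were tested. The split at 255 kb used here was chosen after the values were seen. Within 255 kb, the median absolute log2 ratio of ΔIkE120 to wt over 24 tiles was 0.32 in unstimulated and 0.33 in stimulated cells, and single ratios reached 1.40 and 0.68 in size. Stimulated against unstimulated cells gave 0.41 in wt and 0.30 in ΔIkE120. Beyond 255 kb, over 67 tiles, the genotype medians were 1.34 and 1.24, and the state medians 1.76 in wt and 0.94 in ΔIkE120. By reads, the genotypes thus differed by about as much as the states did. Over all 91 tiles, the mean of the genotype medians was 0.82 ± 0.11 (SD, n = 2 states) and of the state medians 0.93 ± 0.35 (SD, n = 2 genotypes). With covered fragments in place of reads the genotype value was the larger, at 0.40 ± 0.07 against 0.25 ± 0.10. DN3 thymocytes and ES cells, each set against wt unstimulated P5424 cells, gave 1.06 and 1.57 over the same tiles, 0.28 and 0.47 within 255 kb and 1.85 and 2.20 beyond. Within 255 kb the median for DN3 thymocytes was thus below that for ΔIkE120 cells in either state.

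**Figure D2:**
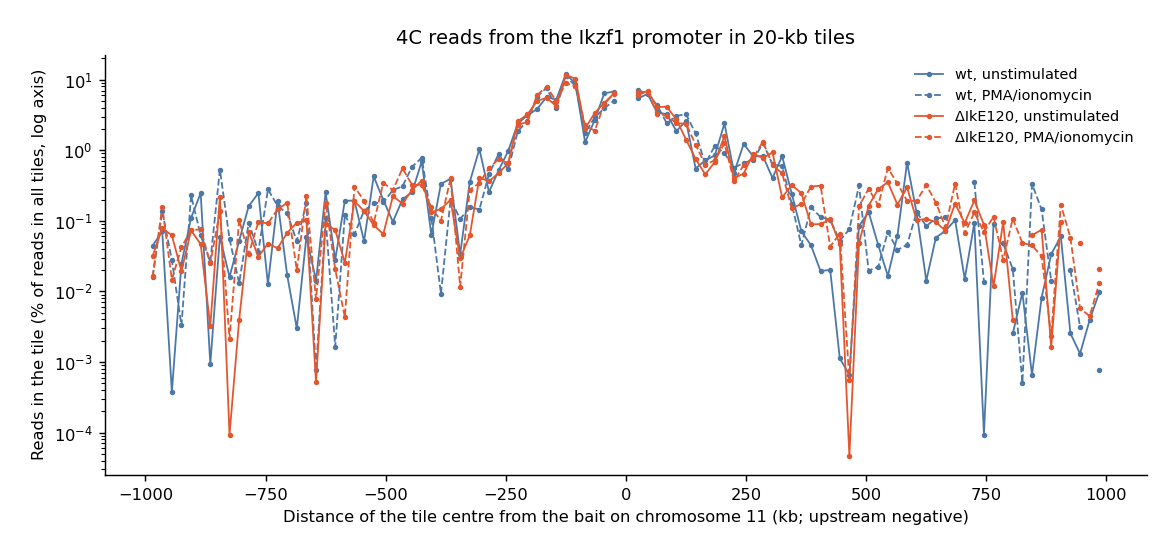
Share of reads per 20-kb tile against the distance of its centre from the bait, on a log axis, for the 4 libraries; tiles with 0 reads are left out and the bait region is not drawn. The profiles differ less to about 255 kb than farther out. Downstream beyond 255 kb, ΔIkE120 lies above wt in both states in 16 of 32 tested tiles. Most of these 16 reached the minimum of covered fragments only through ΔIkE120.

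The 2 genotype ratios come from 4 different libraries and share none. Across the 91 tiles, Pearson's r between them was -0.08 and Spearman's rho -0.03, and within 255 kb r was -0.04 over 24 tiles; neighbouring tiles and the library sizes are shared by the points. Among tiles with 40 or more covered fragments r was 0.51 over 46 tiles. The ratios had the same sign in 45 tiles, 28 higher and 17 lower in ΔIkE120, and opposite signs in 46. Ratios alike in direction and size, at least 0.5 in both states with the smaller at least 0.5 of the larger, were found in 11 tiles. Of the 91 tiles, 7 (7.69%) met this rule as higher and 4 (4.4%) as lower in ΔIkE120. Under the same rule for size, 14 tiles had opposite signs. Where both ratios only had to reach 0.5, the signs were the same in 20 tiles and opposite in 21 (23.1%). A minimum on covered fragments can itself depend on the difference: 2 of the 7 untested tiles also met the rule, both lower in ΔIkE120, so that 7 were higher and 6 lower among all 98 tiles. Of the 24 tiles within 255 kb, 0 met the rule, and in 0 did both ratios reach 0.5 with any sign. The rule thus had no candidates there, and smaller changes alike in both states lie below it. In these 24 tiles the ratios were higher in both states in 5, lower in both in 6 and of opposite sign in 13. The tile with the deletion, chr11:11448520-11468519, took 12.1% and 11.1% in wt and 11.6% and 8.83% in ΔIkE120 cells, a ratio of -0.20 ± 0.20. The tiles with the centres of the other enhancers had mean ratios of 0.23 ± 0.22 (IkE180), 0.01 ± 0.45 (IkE155), 0.12 ± 0.29 (IkE25) and 0.01 ± 0.18 (IkE+15).

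**Figure D3:**
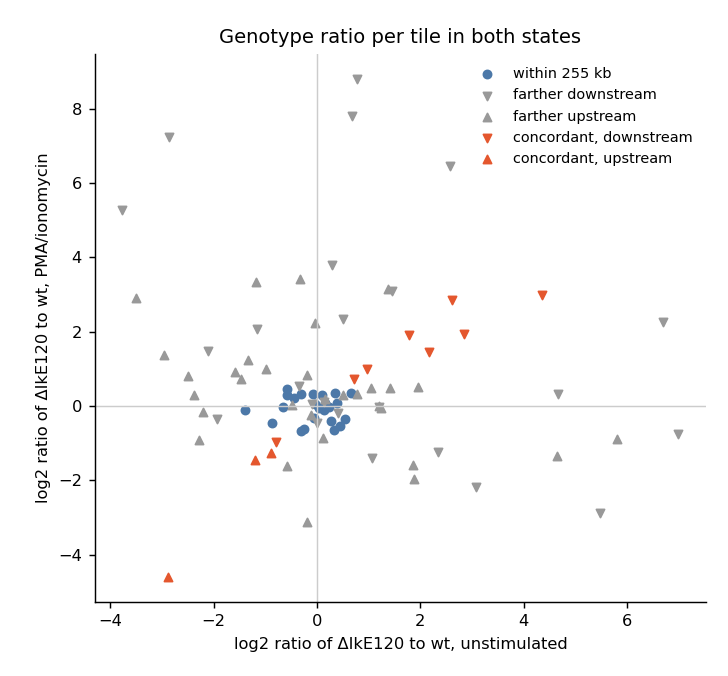
Log2 ratio of ΔIkE120 to wt per tile, unstimulated on the horizontal and stimulated on the vertical axis, for the 91 tested tiles; colour and shape mark distance, side and the 11 concordant tiles. Points lie in all 4 quadrants, and r is -0.08.

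By edgeR's quasi-likelihood test with the state as a block, 0 of 91 tiles (0%) were called at an adjusted p under 0.05. At an unadjusted p under 0.05 there were 2 tiles, and the smallest Benjamini-Hochberg adjusted p was 0.706. DESeq2 with the same block called 14 of 87 tiles with an adjusted p, 9 higher (10.3%) and 5 lower (5.75%), and had 22 at an unadjusted p under 0.05. Of the 14, 8 were among the 11 concordant tiles, and 2 lay within 255 kb. Of these 2, chr11:11658521-11678520, over part of *Ikzf1*, had ratios of 0.345 and 0.349 (DESeq2 adjusted p = 0.0167). The other, chr11:11698521-11718520, over parts of *Fignl1* and *Ddc*, had ratios of -0.877 and -0.450 (DESeq2 adjusted p = 0.000353). Neither was called by edgeR. Several of the 9 higher calls had under 10 covered fragments in wt, so they reached the minimum only through ΔIkE120. The tools thus gave different answers on the same counts, and the difference was not resolved here. The design leaves 1 residual degree of freedom per tile, and an exact permutation within states cannot go below p = 0.5. The p-values weigh the genotype difference against its change between the states, with the spread shared over tiles. They do not measure a spread between replicates, and the change between states may be technical.

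The concordant tiles that were higher in ΔIkE120 all lay downstream, from the start of *Grb10* into *Cobl*. The largest, chr11:12118521-12138520 at the end of *Cobl*, had 177 and 550 reads in wt unstimulated and stimulated cells and 7545 and 7112 in ΔIkE120 cells. As shares these were 0.0166%, 0.0695%, 0.352% and 0.558%, and the genotypes did not overlap. How many of all tiles separated in this way was not counted. Its ratio was 3.67 ± 0.96. It was 5.12 ± 4.26 on fragments with a Csp6I site and 5.53 ± 3.69 with one on either side, where the spread between states was larger. Reads came from 3 and 2 fragments in wt and 23 and 30 in ΔIkE120 cells, out of 50, so it reached the minimum of 10 covered fragments only through ΔIkE120, as did 2 others of the 7. The tile before it, chr11:12098521-12118520, between genes, had 484 and 176 reads in wt and 6056 and 2117 in ΔIkE120 cells, a ratio of 2.74 ± 0.17. It is 1 of these 2 others, with 6 and 2 covered fragments in wt and 22 and 16 in ΔIkE120 cells. Inside *Cobl*, chr11:12198521-12218520 had 151 and 665 reads in wt and 2288 and 4104 in ΔIkE120 cells, a ratio of 2.39 ± 0.65. Over the start of *Grb10*, chr11:11938521-11958520 had 759 and 356 reads in wt and 5291 and 2197 in ΔIkE120 cells, a ratio of 1.85 ± 0.10. The tile chr11:11978521-11998520 had 207 and 896 reads in wt and 1926 and 4002 in ΔIkE120 cells, a ratio of 1.82 ± 0.50. The other 2 had ratios of 0.98 and 0.73. By the share of covered fragments in place of reads, the ratio was smaller in these 7 tiles. It was 2.89 in the first, 1.97 in the tile before it, 0.89 inside *Cobl* and 0.78 over the start of *Grb10*. It was 0.29 ± 0.32 at 11978521, and 0.80 ± 0.87 and 0.35 ± 0.03 in the last pair.

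Of the 4 tested concordant tiles that were lower in ΔIkE120, 3 lay upstream and 1 downstream. The most negative of them, chr11:10988520-11008519 upstream of *Vwc2*, had 2053 and 964 reads in wt and 546 and 55 in ΔIkE120 cells, a ratio of -3.74 ± 1.21 from 5 and 5 covered fragments in wt and 5 and 7 in ΔIkE120. It was -0.92 with quantile normalization and -1.01 ± 5.07 on fragments with a Csp6I site, where the states differed in sign, and -1.0 ± 5.08 with one on either side. The tile chr11:10788520-10808519 had 1724 and 746 reads in wt and 1492 and 430 in ΔIkE120 cells, a ratio of -1.33 ± 0.18. This was 3.54 ± 3.41 on fragments with a Csp6I site and -1.55 ± 0.08 with a Csp6I site on either side. Inside *Vwc2*, chr11:11148520-11168519 had 7389 and 6190 reads in wt and 7959 and 4125 in ΔIkE120 cells, which as shares were 0.692%, 0.782%, 0.371% and 0.323%. Its ratio was -1.09 ± 0.26, and both ΔIkE120 shares lay below both wt shares, a separation not counted over the other tiles. Downstream, chr11:12058521-12078520 had a ratio of -0.89 ± 0.13 (-3.00 ± 0.66 on fragments with a Csp6I site and -0.915 ± 0.337 with one on either side), whereas its covered fragments were fewer in wt (6 and 5) than in ΔIkE120 cells (9 and 8). The 2 untested tiles that met the rule were chr11:10748520-10768519, with 171 and 440 reads in wt and 2 and 27 in ΔIkE120 cells, and chr11:12458521-12478520, with 359 and 112 in wt and 35 and 30 in ΔIkE120 cells. Their mean ratios were -4.30 and -3.05, and they are named because of their values.

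Farther downstream, from 500 kb to the last tile, both ΔIkE120 libraries lay above both wt libraries. This band was among those to be described, but it is given prominence because of its values. The genotypes also separated in other regions, as listed with the DHS interval above. The wt libraries had 17393 (unstimulated) and 12474 (stimulated) reads there, and the ΔIkE120 libraries 55865 and 44406. As shares these were 1.63%, 1.58%, 2.60% and 3.48%, and the ratios were 0.68 without and 1.14 with stimulation, 0.91 ± 0.33. Reads covered 100 and 49 of 1169 fragments in wt and 204 and 214 in ΔIkE120 cells. Depth differed in the same direction, so the expected number of covered fragments was computed with each library thinned to 791289 reads in the tiles: 97.5 and 49 in wt and 197 and 210 in ΔIkE120 cells. Thinning equalizes the reads alone and treats amplified copies as separate molecules, so the number of ligations sampled is not matched. On a linear scale, the ratio of covered fragments at equal depth was 2.02 in unstimulated and 4.29 in stimulated cells, against 1.12 and 1.35 over all tiles. Stimulated wt cells had the fewest, and 0.502 times those of unstimulated wt cells. In wt unstimulated cells 1 fragment held 38.5% of the reads of the band, and in ΔIkE120 unstimulated cells the largest held 3.68%. The band took 0.636% of the tile reads in DN3 thymocytes and 11.6% in ES cells, so wt and ΔIkE120 P5424 cells lay between these.

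The gene *Cobl*, which encodes an actin nucleator, fills much of this band (chr11:12136611-12364963). It held 13910 and 7002 reads in wt and 32142 and 28913 in ΔIkE120 cells, on 57, 30, 113 and 116 of 505 fragments. As shares these were 1.30%, 0.885%, 1.5% and 2.27%. The ratios were 0.20 without and 1.36 with stimulation, 0.78 ± 0.82, so the mean ratio was smaller than the spread between states. On fragments with a Csp6I site it was 1.23 ± 0.07, but with a Csp6I site on either side 0.73 ± 0.86, again below its spread. It was above its spread by the share of covered fragments, at 1.14 ± 0.49, and narrowly so with capping, at 0.81 ± 0.75. With quantile normalization it was below, at 0.685 ± 0.903. Of 13 tested tiles that overlap *Cobl*, 7 were higher in ΔIkE120 in both states, against 16 of 32 beyond 255 kb downstream and 28 of 91 in all. Most of the 7 and most of the 16 had under 10 covered fragments in wt. They reached the minimum only through ΔIkE120, so these counts are not independent of the difference they describe.

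The upstream side at the same distance did not follow. From 500 kb to the last tile upstream, the shares were 2.58% and 2.75% in wt and 1.61% and 2.47% in ΔIkE120 cells, a ratio of -0.42 ± 0.37, whereas the covered fragments at equal depth were 111 and 102 in wt and 144 and 154 in ΔIkE120 cells. Reads and covered fragments thus differed in direction there. From 100 to 250 kb, the upstream band, which holds IkE120, took 40.5% and 40.3% in wt and 41.9% and 40.4% in ΔIkE120 cells, and the downstream band 9.18% and 11.1% against 7.94% and 8.71%, a ratio of -0.28 ± 0.10. That ratio was -0.16 ± 0.02 with chromosome-wide scaling and -0.17 ± 0.23 on fragments with a Csp6I site, but -0.31 ± 0.08 with one on either side, and its covered fragments were 221 and 190 in wt and 250 and 239 in ΔIkE120 cells. Of all reads over 15 kb from the bait, the share from 1 to 10 Mb downstream was 7.41% and 6.37% in wt and 6.29% and 5.08% in ΔIkE120 cells, a ratio of -0.28 ± 0.06, and upstream -0.20 ± 0.02.

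Many single sites had reads in some libraries and not in others. Of the 4916 sites, 773 had reads in all 4 libraries, 700 of them within 255 kb. Reads in both ΔIkE120 libraries and in neither wt library were found at 170 sites, and the reverse at 40. Beyond 255 kb downstream these numbers were 86 and 7, and upstream 52 and 27. Sites shared by the states rather than the genotypes, in both unstimulated or both stimulated libraries alone, numbered 96 and 63. Pairs of libraries that share neither gave similar numbers. These were 103 for wt unstimulated with ΔIkE120 stimulated, and 57 for wt stimulated with ΔIkE120 unstimulated. The wt libraries were shallower, and depth was not matched in these site counts. Apart from the pair inside the deletion, the site with the most reads among those in wt alone was at 10745778, between genes, with 117 and 2133 reads. In ΔIkE120 cells alone the sites with the most reads were at 11381675 in an intron of 4930415F15Rik (12878 and 372 reads), 11328723 in an intron of *Zpbp* (3633 and 926) and 12138830 in an intron of *Cobl* (461 and 2575). These values are uneven between states.

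Among 443 sites with reads in all 4 libraries and a mean of at least 500 reads, the concordance rule was met by 56 as higher and 25 as lower in ΔIkE120, and 60 had opposite signs under the same rule for size. Where both ratios only had to reach 0.5, the signs were the same at 134 sites and opposite at 99. The ΔIkE120 libraries are deeper, and 43 of the 56 higher sites had a mean under 500 reads in wt, so they reached the minimum only through ΔIkE120, while 3 of the 25 lower sites had one in ΔIkE120. With the libraries scaled to equal depth, 51 of 439 sites were concordant as higher and 27 as lower, and 28 of these 51 still had a mean under 500 in wt and 8 of the 27 in ΔIkE120, both at equal depth. Pearson's r between the states was 0.06 and Spearman's rho 0.12. Among the sites that met the rule, the largest positive mean ratios, at sites that reached the minimum only through ΔIkE120, were at 11440741, between genes (30 and 23 reads in wt, 1278 and 1252 in ΔIkE120), at 11672734 in an exon of *Ikzf1* (225 and 1, 5300 and 253) and at 11362593 in an intron of 4930415F15Rik (28 and 151, 1876 and 2403). The largest negative ones were at 11328966 in an intron of *Zpbp* (743 and 1811 reads in wt, 381 and 216 in ΔIkE120), at 11391284 in an intron of 4930415F15Rik (3245 and 1461, 779 and 716) and at 11680395, between genes (6701 and 3713, 3860 and 1002). Of these, the site at 11328966 had a mean under 500 reads in ΔIkE120, so it reached the minimum only through wt.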

How the data were processed

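The authors trimmed the bait sequence, mapped 4C reads to mm9 with Bowtie (version 1.0.0 in the submitters' processing notes) and deposited raw read counts per DpnII fragment of chromosome 11. All 295446 listed positions coincided with the middle of a DpnII fragment cut from the mm9 genome in silico; 2 positions missing from some libraries lie within 15 kb of the bait. Genes are GENCODE M1. H3K27ac peak lists were not used here. Counts were summed per tile and region. Tiles were tested with edgeR 4.0.16 (R 4.3.3), library size being the reads in the tiles, and alternatively with DESeq2 1.42.0. edgeR was tested on simulated counts, and at the spread of these libraries it missed most of the changed tiles, so a tile that is not called is not shown to be unchanged. A pseudocount of 10 reads was used (0.5 for covered fragments, 0.2 for running means of 21 fragments). Named tiles were the concordant ones, up to 5 per direction by mean ratio; named sites were those at the deletion with 2 neighbours a side, up to 3 per direction in 1 genotype alone by reads, and up to 3 per direction by mean ratio. Members and lists were chosen with earlier results of these data known. The inference that counts belong to sites, the split at 255 kb, the count of opposite signs under the rule for size, the site counts at equal depth and the thinning to equal depth were added after values were seen. Tables were handled in Python 3.11.15 (pandas 2.3.3, numpy 2.4.6), with intervals from scipy 1.17.1 and plots from matplotlib 3.10.9.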

Additional observations from a re-analysis of the deposited data

Results flagged for a closer look

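By shares of the tile reads, the ratio of ΔIkE120 to wt had opposite signs in unstimulated and stimulated cells in 14 regions. With 1 library per genotype and state the difference between states was not tested. Which regions these were depended on the scaling. With chromosome-wide scaling, IkE180, IkE155, IkE+15, *Ikzf1* and the bands from 15 to 50, 50 to 100 and 250 to 500 kb downstream had the same sign in both states. Other regions, such as the DHS interval and *Vwc2*, then had opposite signs. The values below are by shares of the tile reads. The log2 ratio in stimulated cells was -0.0754 at IkE180, 0.192 at IkE155, 0.372 at IkE25 and -0.0786 at IkE+15. In genes it was 0.208 in *Zpbp*, -0.181 in 4930512M02Rik, -0.0738 in *Ikzf1*, -0.415 in *Fignl1* and 0.116 in *Grb10*. In bands it was 0.271 from 15 to 50 kb upstream and -0.0658 downstream, -0.204 from 50 to 100 kb upstream and -0.0412 downstream, and 0.151 from 250 to 500 kb downstream.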

How the results depend on the processing

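By edgeR, 0 tiles were called also under each other scaling, capping, Csp6I fragments, both filters, the shifted grid, without the fragments of the deletion and without the state block. It called 1 tile with covered fragments in place of reads, 2 with tiles of 10 kb and 1 with tiles of 40 kb, all higher in ΔIkE120, and DESeq2 called 14. The 11 concordant tiles became 5 with at least 40 covered fragments, 18 on a grid at multiples of 20 kb, 28 in tiles of 10 kb, 20 without the rule on relative size and 7 at a ratio of at least 1. With the unstimulated or the stimulated libraries left out, 52 and 60 tiles were at least 0.5 in size in the state that remained, with no second state to compare. All 11 tiles remained concordant under the other scalings and capping, 6 under quantile normalization or Csp6I fragments and 5 with covered fragments. The share of concordant tiles that were higher was 63.6%, and 83.3% with covered fragments, 87.5% on Csp6I fragments (but 63.6% with a Csp6I site on either side, 9 of the 11 tiles shared), 80.0% at 40 covered fragments and 50% in tiles of 40 kb. The median ratio of all tiles was 0.13 and 0.21 in the 2 states, 0.20 and 0.39 by chromosome-wide scaling and 0.13 and 0.03 by TMM. The genotype and state medians were 0.402 and 0.253 with covered fragments and 0.4 and 0.453 with at least 40 covered fragments, and the genotype median was 0.961 in tiles of 10 kb and 0.697 in tiles of 40 kb.

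With covered fragments in place of reads, values are shares of all covered fragments, whose total was higher in ΔIkE120. In the windows of IkE180, IkE120 and IkE+15 nearly all fragments were covered (34 of 36 at IkE180 in each library), so a negative value does not by itself show fewer covered fragments. The mean log2 ratio was then -0.312 at IkE180, -0.188 at IkE155, -0.376 at IkE120, -0.329 at IkE+15, -0.267 in the DHS interval, -0.249 between it and the bait, 0.235 in the far upstream and 1.26 in the far downstream band, and 0.294 in the tile at 12058521. It was -0.0664 in the tile at 10988520 and -0.0558 in that at 10788520. For *Ddc* it was -0.00507 and for the band from 100 to 250 kb downstream -0.0618. On Csp6I fragments it was -0.13 at IkE155, -0.196 in the DHS interval, 0.0518 in *Vwc2*, -0.0293 far upstream, 1.31 far downstream and 3.54 in the tile at 10788520. Quantile normalization gave 0.32 at IkE155, 0.241 at IkE+15, 0.0751 in the DHS interval and 0.219 between it and the bait. Chromosome-wide scaling gave 0.0136 and 0.239 for these 2, TMM -0.2 and 0.0248, and DESeq2 size factors -0.165 and 0.0597. The DHS interval was at -0.0605 with capping and -0.0667 without the fragments that the deletion removes or cuts. Added after values were seen, sites with a Csp6I site on either side gave -0.14 in the DHS interval, 0.0595 at IkE155, -0.197 in *Vwc2*, -0.267 far upstream, 0.852 far downstream and -1.55 in the tile at 10788520, and covered fragments at equal depth, not divided by their total, gave 0.0495 in the DHS interval, 0.0648 between it and the bait, 0.127 at IkE155, 0.49 far upstream and 1.56 far downstream. The tiles held 61.3% and 51.85% of the reads over 15 kb from the bait in wt unstimulated and stimulated cells. In ΔIkE120 cells they held 64.2% and 58.56%. Chromosome-wide scaling therefore raised all ratios of a state by nearly the same amount, more so in stimulated cells. The cause of the other differences was not tested. The far downstream ratio was above 0 under every alternative run. No test was run on running means or with a state left out, and no spread of states exists with a state left out. Ratios, and the tests with a block, were paired by state. Beyond that, no paired analysis was possible because each genotype and state has 1 library.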
